A study of Mus musculus with 8 samples.

Results

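The plasminogen activation system was described through 5 of its genes, Plau, Plaur, Plat, Serpine2 and Serpinb2, which are 5 of the 27775 gene rows in each of 2 single-cell RNA count tables. The genes were taken by symbol and all 5 were present in both tables. Cells came from 2 pancreatic ductal adenocarcinomas of KPC mice (carrying LSL-Trp53R172H/+ and Pdx-1-Cre), 1 labelled medium size and 1 labelled large size, and both mice were untreated. In this model the Pdx-1 promoter drives Cre, so mutant alleles are switched on in cells of the pancreatic lineage, while stromal, vascular and immune cells do not descend from that lineage. Each tumor was dissociated with a Miltenyi kit and its cells were captured in droplets on the Chromium platform. The labels list 4 technical replicates per tumor, but each table pools them, so n was 1 tumor for each size, no test between sizes or cell classes was possible, and every interval given is an exact 95% interval for counting error only.

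Plasmin is a protease that dissolves fibrin and cuts matrix proteins, and it is made from plasminogen (Plg), which is secreted by the liver. Plasminogen is cut by urokinase (Plau), which is held at the cell surface by its receptor uPAR (Plaur), and by tissue-type plasminogen activator (Plat). The serpins PAI-2 (Serpinb2) and protease nexin-1 (Serpine2) inhibit these activators, and the system is known for its role in cell migration, clot removal and tumor invasion. On mouse build GRCm38 in the GENCODE annotation, Plau lies at chr14:20836660-20843385 (plus strand), Plaur at chr7:24462484-24475968 (plus strand) and Plat at chr8:22757727-22782844 (plus strand). Serpine2 lies at chr1:79794197-79861180 (minus strand) and Serpinb2 at chr1:107511423-107535478 (plus strand). Serpinb2 overlaps Serpinb10 on the same strand, so reads in the overlap could belong to either gene.

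The table of the medium tumor held 20301669 unique molecular identifiers (UMIs, each 1 captured RNA molecule) in 2812 cells, with a median of 5456.5 per cell. The table of the large tumor held 2239012 UMIs in 1533 cells, with a median of 1037 per cell, and 5 cell barcodes occurred in both tables. Levels are given as CPM, the UMIs of a gene per 1000000 UMIs of a group of cells. A count of 0 allows up to 0.148 CPM over the whole medium tumor and up to 1.34 CPM over the whole large tumor. Seurat clusters were named from marker lists. Of the medium tumor 2331 cells in 8 clusters were epithelial-like, 238 monocyte/macrophage-like, 74 mesothelial-like, 67 stromal-like and 38 endothelial-like. A cluster of 64 cells stayed unnamed because it held 10 of 11 epithelial and 8 of 11 macrophage markers. Of the large tumor 1219 cells were epithelial-like, 253 monocyte/macrophage-like, 50 stromal-like and 11 endothelial-like. Epithelial-like cells carried the 11 epithelial markers at a summed 11535 CPM in the medium tumor and 4469 CPM in the large tumor, with macrophage markers at 247 and 192 CPM. One cluster in each tumor, cluster 7 of the medium tumor and cluster 1 of the large tumor, held only 3 of the 11 epithelial markers. These clusters had Vim at 1570 and 1644 CPM and Epcam at 380 and 39 UMIs, and they are counted as epithelial-like with that reservation. Epithelial-like cells were not divided into malignant and other epithelial cells. In the large tumor cluster 4 was led by genes of enterocytes (Fabp1, Guca2b), cluster 6 by the goblet cell mucin gene Muc2 and cluster 9 by the urothelial gene Upk3a. RNA of epithelial genes was also present outside the epithelial-like clusters, with the 11 markers at 4245 CPM in endothelial-like, 2876 CPM in mesothelial-like, 1277 CPM in stromal-like and 664 CPM in monocyte/macrophage-like cells of the medium tumor. The macrophage-like class of the large tumor held 6 cells called granulocytes when cells were named 1 by 1, and granulocyte markers were at 665 CPM in the 247 others.

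The 5 genes fell into different cellular compartments. Plaur UMIs were found in all classes, Plat and Serpine2 were highest in stromal-like cells of the medium tumor and low or absent in macrophages, and Serpinb2 was nearly absent from epithelial-like cells and sat in macrophage-like, mesothelial-like and a few stromal-like cells. Plau was scarce everywhere. Over all cells of the medium tumor 4336 UMIs of Plaur, 1509 of Plat, 410 of Serpine2, 194 of Serpinb2 and 55 of Plau were counted. The same genes had 369, 514, 69, 42 and 6 UMIs in the large tumor.

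**Figure D1:**
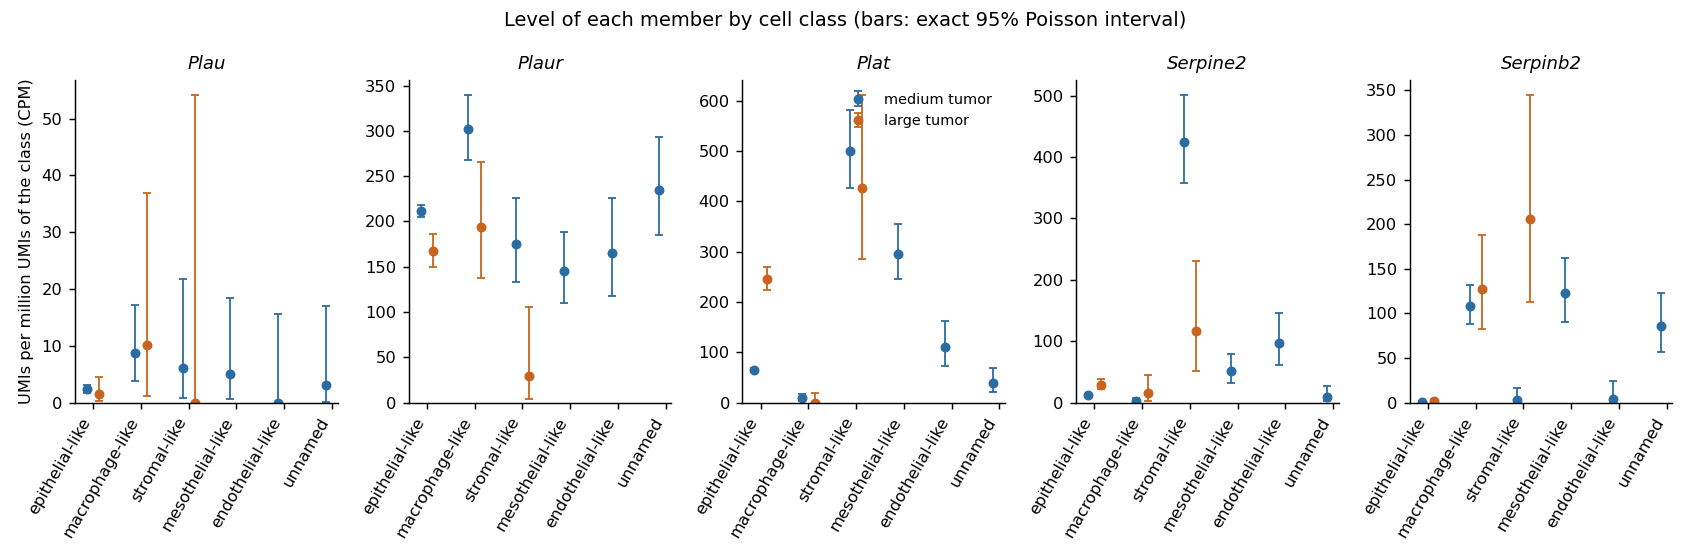
CPM of each gene (y axis, from 0) by cell class (x axis) in the medium tumor (blue) and the large tumor (orange). Points are sums over the cells of a class and bars are exact 95% Poisson intervals. The endothelial-like class of the large tumor, with 11 cells, is not drawn. Plat and Serpine2 are highest in stromal-like cells, but 6 of the 8 Serpine2 UMIs of that class in the large tumor came from 1 cell, whereas Serpinb2 is close to 0 in epithelial-like cells of both.

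Plau, the urokinase gene, was detected in 52 of 2812 cells of the medium tumor and in 6 of 1533 cells of the large tumor. No cell of the medium tumor had more than 2 UMIs of it. Within the medium tumor its level was 2.32 CPM (1.67 to 3.14) in epithelial-like cells and 8.69 CPM (3.75 to 17.1) in monocyte/macrophage-like cells, a ratio of 3.74 (1.52 to 8.07) for the macrophages. Stromal-like and mesothelial-like cells had 2 UMIs each, and no UMI was found in the 38 endothelial-like cells, which allows up to 12.7 CPM. Among the epithelial-like clusters 1 stood above the rest. Cluster 6, led by Krt17, Cldn4, Slco2a1, Ctla2a and Gabrp, had 19 of the 55 Plau UMIs of the tumor (34.5%) with 8.39% of its cells, and a level of 10.7 CPM (6.44 to 16.7). The next epithelial-like cluster, cluster 2, was at 2.68 CPM, a ratio of 3.99 (1.53 to 12.2), and the other 6 lay between 0.526 and 2.02 CPM. Of the 6 Plau UMIs of the large tumor 3 were in epithelial-like cells, 2 in macrophages and 1 in an endothelial-like cell, too few to place the gene.

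Plat, the gene of tissue-type plasminogen activator, showed the clearest order of classes. Within the medium tumor stromal-like cells had 500.1 CPM (427 to 582), mesothelial-like cells 296 CPM (245 to 355), endothelial-like cells 110 CPM (72.1 to 162) and epithelial-like cells 65.2 CPM (61.5 to 69.0), and each of these neighbours differed beyond counting error. The unnamed cluster had 39.6 CPM (21.1 to 67.8), not apart from the epithelial-like cells. Macrophages were lowest, at 8.69 CPM from 8 UMIs in 8 of 238 cells. Plat of the large tumor was at 426 CPM (285 to 611) in stromal-like cells and 246 CPM (225 to 269) in epithelial-like cells, and it was found in 0 of 253 macrophages, which allows up to 1.19% of cells with a UMI and a level of up to 15.3 CPM. These cells had a median of 688 UMIs, so the share of cells that express the gene is not limited by this count. With each cell thinned to 2500 UMIs, Plat was seen in 53.7% of stromal-like, 41.9% of mesothelial-like and 13.3% of epithelial-like cells of the medium tumor and in 2.52% of its macrophages. Without thinning these shares were 71.6%, 64.9%, 27.8% and 3.36%, at medians of 4361, 4225, 5980 and 3516 UMIs per cell.

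Plat also varied among the epithelial-like clusters. Its level in the medium tumor ran from 27.2 CPM (21.6 to 33.8) in cluster 1, led by the gastrokine genes Gkn1, Gkn3 and Gkn2, to 118 CPM (105 to 131) in cluster 5, led by Yap1 and Birc2, a 4.32-fold range (3.38 to 5.59). Cluster 8, led by Dmbt1 and Lcn2, followed at 99.4 CPM (83.2 to 118) and was not apart from cluster 5. Clusters 5 and 8 are unlike in mesenchymal marking, since Vim was at 1571 CPM in cluster 5 and at 42.9 CPM in cluster 8. In the large tumor cluster 1, led by Ggct, Ramp1 and Ank, had 468 CPM (407 to 535) and the cycling cluster 5, led by Ube2c, had 279 CPM (238 to 324). Cluster 7, led by gastrokine and trefoil genes, had 182 CPM (136 to 239). Cluster 4, led by Papss2, Fabp1 and Guca2b, had 35.7 CPM, and cluster 6, led by Tff3, Lgals2 and Muc2, had 1 UMI of Plat in 155 cells. Cluster 1 over cluster 6 came to 83.7-fold, with an interval from 14.9 to 3321 because of that single UMI. Without clusters 4 and 6 the lowest was cluster 3 at 170 CPM, and the range was 2.76-fold (1.94 to 4.02).

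Plaur, the gene of the urokinase receptor, had UMIs in every class. It was seen in 60.9% of the cells of the medium tumor and in 17.9% of those of the much shallower large tumor. In the medium tumor its level was 302 CPM (268 to 340) in macrophages, 235 CPM in the unnamed cluster, 212 CPM (205 to 218) in epithelial-like, 175 CPM in stromal-like, 166 CPM in endothelial-like and 146 CPM (110 to 189) in mesothelial-like cells. No class in this order differed from its neighbour beyond counting error, although the macrophages and the epithelial-like cells, which are not neighbours, had intervals that did not overlap. The part of the epithelial RNA in the Plaur level of the other classes was not tested. In the unnamed cluster 1 cell carried 20 of its 77 UMIs, and without that cell the level was 179 CPM. In cells thinned to 2500 UMIs, 49.2% of macrophages and 35.2% of epithelial-like cells had a Plaur UMI. Macrophages of the large tumor had 194 CPM (137 to 266), epithelial-like cells 167 CPM (150 to 187) and stromal-like cells 29.3 CPM (3.55 to 106), the last from 2 UMIs.

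Across the epithelial-like clusters of the medium tumor Plaur was highest in cluster 7, led by Inhba, Bmp2, Piezo2 and Ptgs2, with 357 CPM (331 to 385) and a UMI in 85.2% of its 230 cells. Cluster 8 had 309 CPM (280 to 340) and cluster 6 had 270 CPM (246 to 295). The lowest was cluster 4, led by Tff3, Ly6d and Reg1, at 129 CPM (112 to 148), so the range over clusters was 2.77-fold (2.37 to 3.25). Macrophage markers were at 467 CPM in cluster 7 and at 172 to 288 CPM in the other 7, and their part in the Plaur level was not tested. Plaur in the large tumor ran from 61.1 CPM (31.6 to 107) in cluster 4 to 256 CPM (200.4 to 321) in cluster 7, a 4.18-fold range (2.26 to 8.46). Without clusters 4 and 6 the range was 1.72-fold (1.22 to 2.44), with cluster 1 lowest at 148 CPM.

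**Figure D2:**
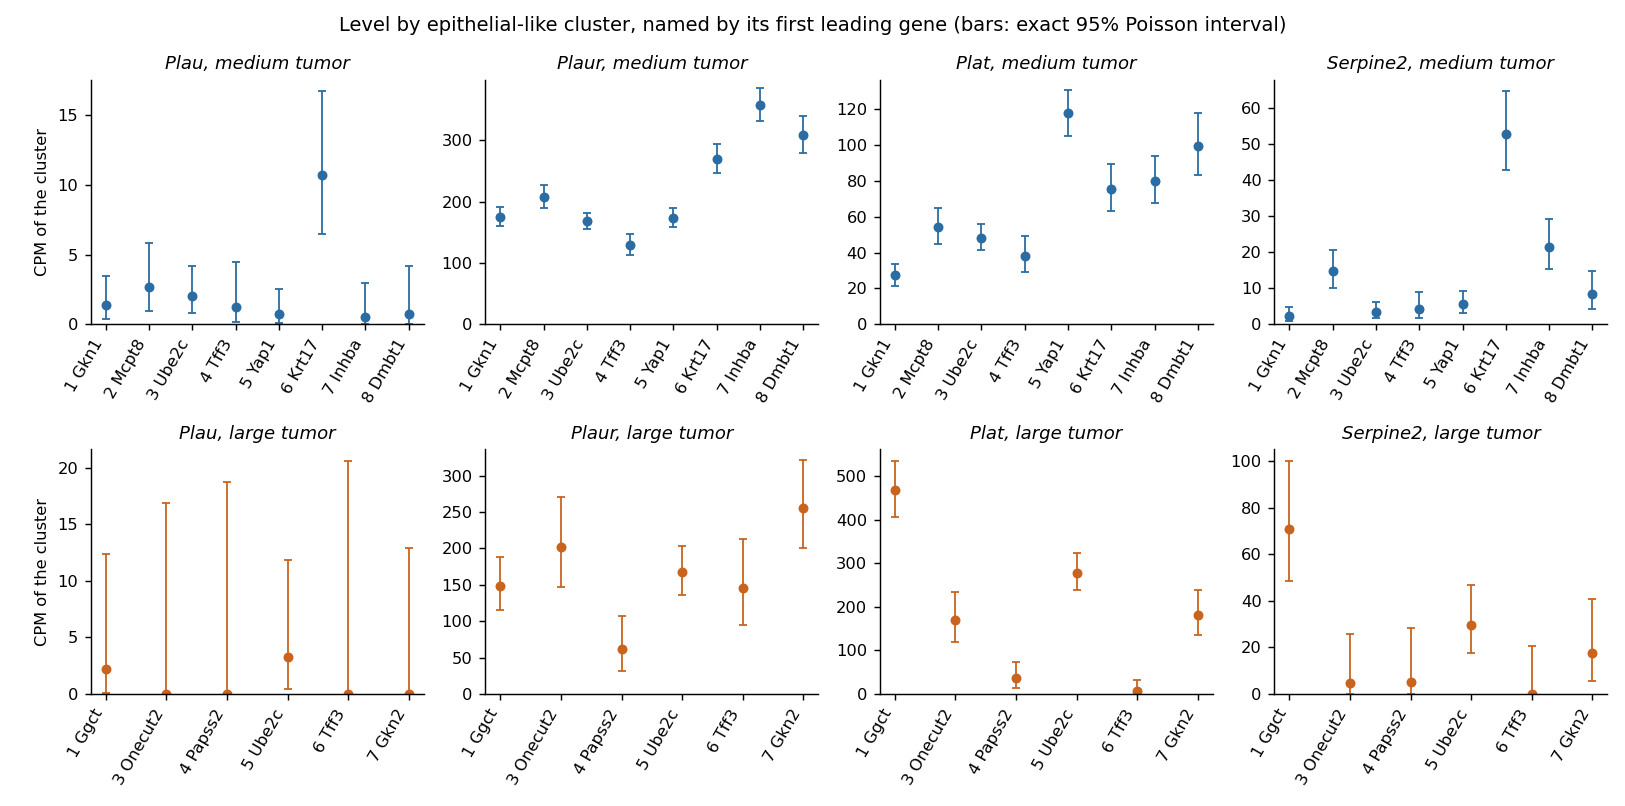
CPM of Plau, Plaur, Plat and Serpine2 (y axes, from 0, each panel with its own scale) in the epithelial-like clusters of the medium tumor (top row) and of the large tumor (bottom row), named on the x axis by number and first leading gene. Bars are exact 95% Poisson intervals and cluster 9 of the large tumor, with 17 cells, is not drawn. Plau and Serpine2 share their highest cluster in the medium tumor, the Krt17 cluster, while Plaur is highest in the Inhba cluster and Plat in the Yap1 cluster.

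Serpine2, the gene of protease nexin-1, an inhibitor of thrombin, urokinase and plasmin, had its highest level in stromal-like cells of the medium tumor. Stromal-like cells had 425 CPM (358 to 501), with 141 of the 410 Serpine2 UMIs of the tumor (34.4%) in 2.38% of its cells. Epithelial-like cells, which were 82.9% of the cells, held 221 UMIs (53.9%) in 155 cells. One stromal-like cell alone carried 37 UMIs, and without it the stromal-like level was 322 CPM (263 to 390). Endothelial-like cells had 97.6 CPM (61.9 to 146), mesothelial-like cells 51.1 CPM (31.2 to 78.9) and epithelial-like cells 12.2 CPM (10.7 to 13.9), each step beyond counting error. Macrophages had 2 UMIs in 238 cells. Serpine2 was seen in 61.2% of stromal-like and 6.65% of epithelial-like cells, and in 50.7% and 2.75% of them once thinned to 2500 UMIs. Among the epithelial-like clusters Serpine2 was highest in the Krt17 cluster, at 52.9 CPM (42.7 to 64.7), a level close to that of the mesothelial-like cells. Cluster 7 followed at 21.6 CPM and cluster 2 at 14.7 CPM, and cluster 1 was lowest at 2.38 CPM, a 22.2-fold range (10.4 to 56.8). Cluster 6 and cluster 7 differed 2.45-fold (1.68 to 3.63). Stromal markers were at 27.6 CPM in cluster 6, within the 23.4 to 41.1 CPM of the other epithelial-like clusters.

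In the large tumor Serpine2 was at 117 CPM (50.7 to 231) in stromal-like cells, but 6 of those 8 UMIs came from 1 cell, and without it the level was 29.7 CPM (3.59 to 107). Epithelial-like cells had 29.1 CPM (22.0 to 37.7). Cluster 1 was highest among them, at 70.9 CPM (48.5 to 100.1) from 32 of the 57 UMIs, and it was also the cluster with the highest Plat. No Serpine2 UMI was found in cluster 6 or cluster 9.

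Serpinb2, the gene of PAI-2, behaved unlike the other 4. In the medium tumor it was counted 16 times in 2331 epithelial-like cells, 0.884 CPM (0.505 to 1.44). Macrophages had 109 CPM (88.4 to 132), mesothelial-like cells 123 CPM (90.4 to 163) and the unnamed cluster 85.3 CPM (56.7 to 123). These 3 groups were not apart from each other, while the next class, endothelial-like, had 1 UMI. The macrophage signal was concentrated. Only 23 of 238 macrophages (9.66%, 6.23 to 14.1) had a Serpinb2 UMI, and 13 of them with 3 or more UMIs carried 88 of the 100 UMIs. Depth was alike in both sets of macrophages, with a median of 3678 UMIs in cells with Serpinb2 and of 3508 in those without. Among mesothelial-like cells 10 of 74 had a UMI and 1 cell held 26 of the 48 UMIs, so that without it the level was 56.7 CPM (35.5 to 85.8). In the 10 mesothelial-like cells with Serpinb2 the macrophage markers summed to 403 CPM and in the 64 without to 1085 CPM.

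In macrophages of the large tumor Serpinb2 was found in 16 of 253 macrophages (6.32%, 3.66 to 10.1) at 127 CPM (82.5 to 188), and in 3 of 1219 epithelial-like cells at 1.53 CPM (0.316 to 4.48), a ratio of 83.2 (25.4 to 431). Without the 6 cells called granulocytes it was found in 15 of 247 macrophages at 120 CPM (76.3 to 181). Single cells held fewer UMIs than in the medium tumor, with 2 of the 16 cells at 3 or more and 6 of the 25 UMIs in them. In addition 7 of 50 stromal-like cells had 14 UMIs, 205 CPM (112 to 345), whereas the 67 stromal-like cells of the medium tumor had 1 UMI. The 7 cells had 0 UMIs of the 11 macrophage markers, mesothelial markers at 174 CPM and stromal markers at 10979 CPM. Stromal markers do not separate these classes, since mesothelial-like cells of the medium tumor had them at 12544 CPM and stromal-like cells at 14342 CPM. No separate mesothelial-like cluster was found in the large tumor.

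**Figure D3:**
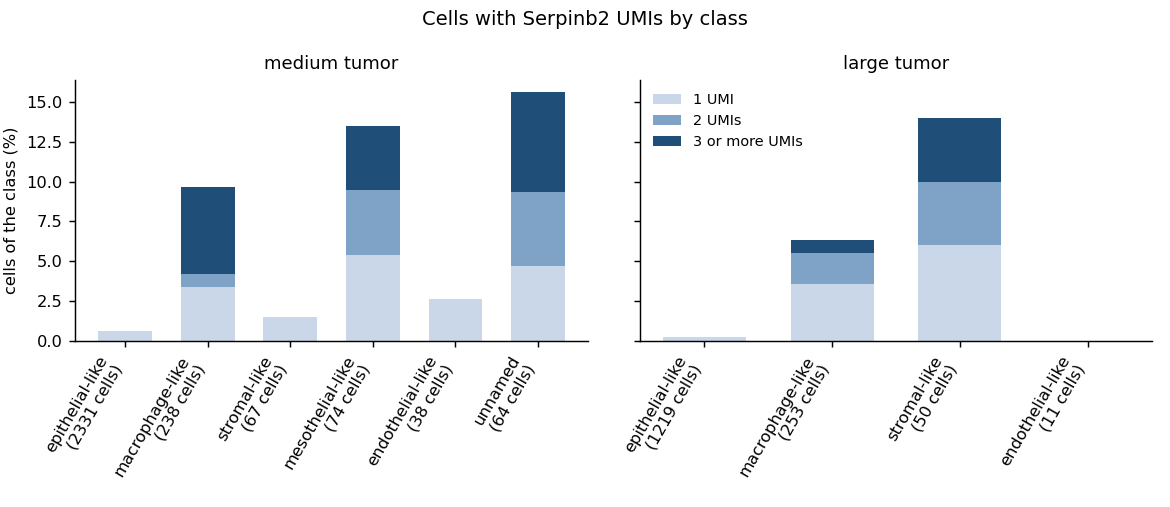
Share of cells with Serpinb2 UMIs (y axis, percent of the cells of a class) by class (x axis, with the number of cells) in the medium tumor (left) and the large tumor (right), split into cells with 1, 2 and 3 or more UMIs. Epithelial-like cells are below 1% in both tumors, and macrophage-like cells reach 9.66% and 6.32%.

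Set against all other cells of its tumor, the epithelial-like cells of the medium tumor did not stand above for these genes. Of the 5 genes 3 reached the minimum of 200 UMIs there (Plaur, Plat and Serpine2). None was 2-fold higher in epithelial-like than in other cells, where 12.2% of the 7838 genes over the minimum were, and Plat (ratio 0.438, 0.387 to 0.496) and Serpine2 (0.143, 0.117 to 0.174) were at least 2-fold lower, where 7.87% of genes were. Plau (0.394, 0.208 to 0.8004) and Serpinb2 (0.011, 0.006 to 0.018) were also lower but had under 200 UMIs. Plaur was at 0.917 (0.836 to 1.01). In the large tumor 2 genes reached the minimum. Plat was 2.16-fold higher in epithelial-like cells (1.51 to 3.19), where 16.6% of 1547 genes were 2-fold higher, Plaur was at 1.14 (0.826 to 1.63), and neither of these 2 was called lower, where 8.4% of genes were. Serpinb2 was lower there (0.011, 0.002 to 0.035) but had under 200 UMIs. The other cells of the large tumor were mostly macrophages, in which Plat was not detected.

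Between epithelial-like clusters of the medium tumor the highest over the lowest was at least 4-fold for Plat and Serpine2, 2 of the 3 genes over the minimum, and 21% of 7317 genes reached that range. Plau was 20.3-fold (3.23 to 844) between cluster 6 and cluster 7, but cluster 7 had 1 UMI. Plaur and Plat, both genes over the minimum in the large tumor, passed 4-fold there, where 34% of 1367 genes did, and neither passed it without clusters 4 and 6. Clusters were made from these same cells, so these ranges are descriptions.

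An axis of rising Vim and falling Epcam was taken as the first principal component of the 2331 epithelial-like cells of the medium tumor. It was computed without the members and other plasminogen genes and turned so that Vim rose. It carried 4.00% of the variance. From the lowest to the highest of 5 equal groups of cells Vim went from 39.1 to 1560 CPM and Epcam from 2265 to 254 CPM. Plaur was flat over the first 3 groups, between 189 and 194 CPM, and was at 218 and 242 CPM in the last 2. Plat went from 61.7 CPM through 45.6 and 47.0 to 74.6 and 83.6 CPM. Serpine2 was at 4.69, 4.46 and 9.47 CPM, then highest in the fourth group at 24.3 CPM (19.6 to 29.8) and at 13.3 CPM (10.3 to 16.8) in the last. Neither Serpinb2 nor Plau had more than 14 UMIs in any group.

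**Figure D4:**
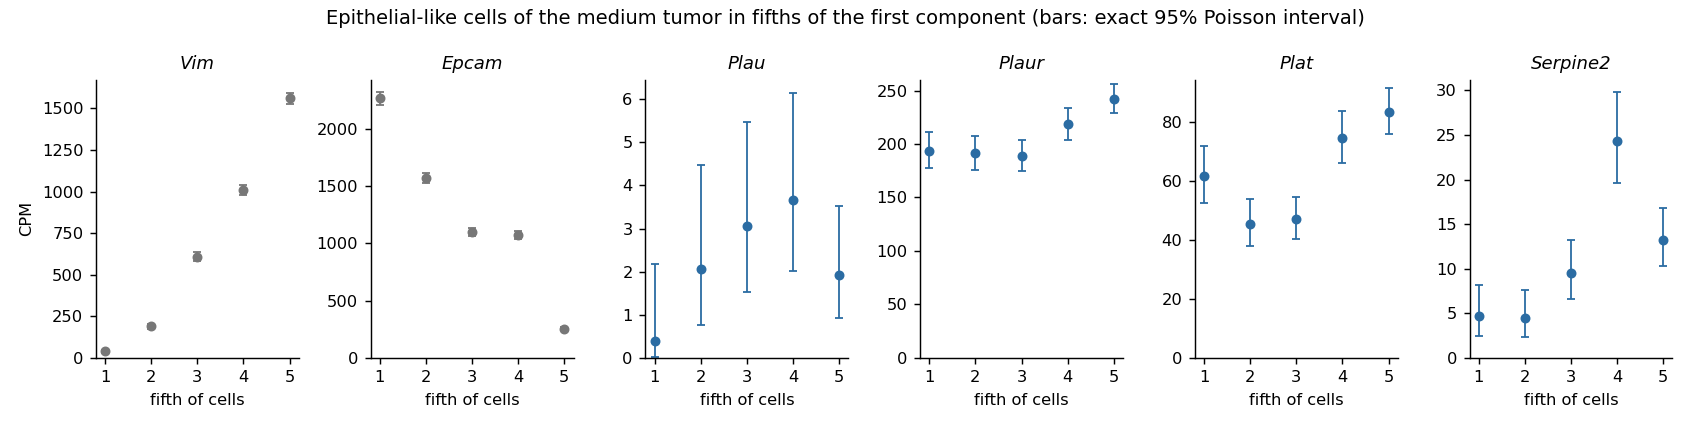
CPM (y axes, from 0) of Vim and Epcam (grey) and of Plau, Plaur, Plat and Serpine2 (blue) in 5 equal groups of epithelial-like cells of the medium tumor ordered along the first principal component (x axis). Bars are exact 95% Poisson intervals. Serpine2 is highest in the fourth group, while Plaur and Plat are highest in the last.

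Between the 777 highest and the 777 lowest cells on the axis, Serpine2 was 4.10-fold higher (2.53 to 7.02), Plat 1.498-fold (1.29 to 1.74) and Plaur 1.18-fold (1.09 to 1.28). Of the 3 genes over the minimum 1, Serpine2, passed 2-fold higher, where 9.17% of 7317 genes did, and none was 2-fold lower, where 9.01% were. Plau was at 1.88 (0.729 to 5.73) from 26 UMIs and Serpinb2 at 0.565 (0.169 to 1.89) from 14. Over single cells Spearman's rho with the axis was 0.186 for Plaur, 0.162 for Plat, 0.151 for Serpine2, 0.052 for Plau and 0.019 for Serpinb2, all in cells of 1 library whose UMI totals also rose along the axis (rho 0.355). Cluster 7 supplied 28.1% of these 777 highest cells and cluster 3, led by Ube2c, 26.0%, and both supplied 0% of the lowest. Once cluster 7 was left out, the log2 ratio fell from 2.04 to 1.10 for Serpine2 and from 0.58 to 0.31 for Plat, and that of Plaur went from 0.24 to -0.17.

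Between the tumors, Plat and Serpine2 were the genes with higher levels in the epithelial-like cells of the large tumor. Plat was at 246 CPM there and 65.2 CPM in the medium tumor, 3.77-fold (3.39 to 4.20), and Serpine2 at 29.1 and 12.2 CPM, 2.38-fold (1.75 to 3.20). Of the 5 genes 4 had 200 UMIs in all cells of the tumors together, Serpinb2 mostly through cells that are not epithelial-like. Plat and Serpine2, 2 of the 4, were at least 2-fold higher, where 6.01% of 8120 genes were, and none was 2-fold lower, where 18.8% were. Plaur was at 0.792 (0.705 to 0.886). Serpinb2 was at 1.73 (0.323 to 6.05) from 3 and 16 UMIs and Plau at 0.660 (0.131 to 2.06). With cells thinned to 500 UMIs in the large tumor and 2500 in the medium tumor, or without cluster 1 of the large tumor and cluster 7 of the medium tumor, only Plat stayed past 2-fold. The log2 ratio of Serpine2, 1.25 with all cells, was then 0.94 with thinned cells and 0.58 without those clusters, and that of Plat without the clusters was 1.5.

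The higher Plat of the large tumor was found in epithelial-like clusters with like leading genes as well. In the cycling clusters led by Ube2c it was 279 against 48.2 CPM, 5.78-fold (4.64 to 7.20), and in the gastrokine clusters 182 against 27.2 CPM, 6.70-fold (4.63 to 9.61). Serpine2 was 8.52-fold higher in the cycling clusters (3.88 to 19.4) from 18 and 12 UMIs. Stromal-like cells had Plat at 426 and 500.1 CPM, a ratio of 0.851 (0.553 to 1.27), and Serpine2 at 0.276 (0.117 to 0.560), and macrophages had Serpinb2 at 1.17 (0.725 to 1.83). The tumors also differed in mouse, library and depth, and with 1 tumor of each size these cannot be told apart from size.

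**Figure D5:**
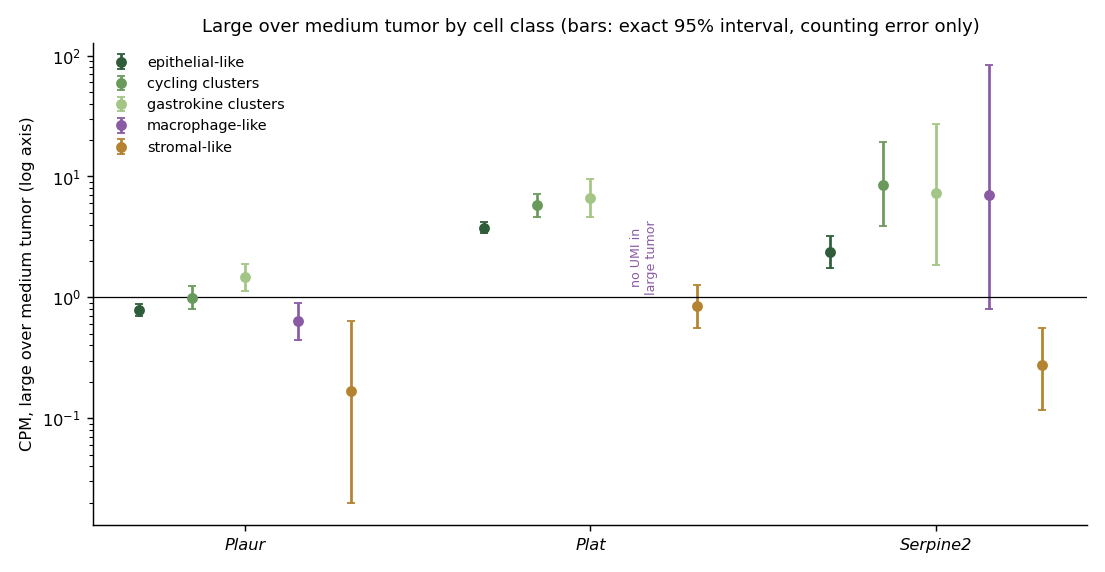
Ratio of CPM in the large over the medium tumor (y axis, log scale, with a line at 1) for Plaur, Plat and Serpine2 in all epithelial-like cells, the cycling clusters, the gastrokine clusters, macrophage-like and stromal-like cells. Bars are exact 95% intervals for counting error. Plat is above 1 in the 3 epithelial-like sets and below 1, with an interval that spans 1, in stromal-like cells.

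The members were also counted together in single cells. In epithelial-like cells of the medium tumor thinned to 2500 UMIs, Plaur and Plat occurred together in 130 of 2331 cells (5.58%, 4.68 to 6.59), where the product of their single shares gives 109 cells. Plaur and Serpine2 were together in 30 cells, with 22.5 from the product, and Plat and Serpine2 in 10, with 8.48 from the product. In macrophages Plaur and Serpinb2 shared 12 of 238 cells, with 9.83 from the product. In stromal-like cells Plat and Serpine2 shared 17 of 67 cells, with 18.3 from the product, so the 2 genes that both peaked in this class were not seen together more often than their shares give.

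Over the 14 clusters of the medium tumor, which share 1 library, the genes most like each member by Pearson's r of log2(CPM + 10) were as follows. Serpinb2 was most like Prg4 (r = 0.984), the gene of lubricin, and then the antigen presentation genes H2-Eb1, H2-Ab1, H2-Aa and Cd74. Over the 10 clusters of the large tumor the correlation was 0.989 with Prg4 and 0.442 to 0.586 with the other 4. There clusters 2 and 8 held 25 and 14 of the 42 Serpinb2 UMIs and all Prg4 UMIs, so the value of 0.989 rests on 2 clusters. The likeness is between clusters, and within the stromal-like class of the large tumor the 7 cells with Serpinb2 had 0 UMIs of Prg4 and the 43 without had 14. Plat was most like Ckap4 (0.960), Osmr, Arl3, Cryab and the actin-binding gene Cald1, all at 0.107 to 0.544 in the large tumor. Serpine2 was most like Fam195b (0.918), Meg3, the collagen chaperone gene Serpinh1, Dynlrb1 and Pofut2, which ran from 0.180 (Pofut2) to 0.942 (Serpinh1) in the large tumor. Plaur was most like Rrm2b (0.854), Fam20c, Fbxo32, Skil and Npc1, all at 0.589 or lower in the large tumor. Plau was most like Abracl (0.853), Tma7, Slc38a1, Cmtm7 and Cxcl16, which ran from -0.764 (Cxcl16) to 0.998 (Cmtm7) in the large tumor with its 6 Plau UMIs. Between members r was highest for Plat and Serpine2, at 0.727 in the medium and 0.562 in the large tumor.

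Of the wider list of 28 plasminogen system genes, which includes the members, Plg itself and the fibrinogen genes Fga, Fgb and Fgg had 0 UMIs in both tumors, as did Cpb2, F12 and Serpina5. In the medium tumor 12 were over the minimum, and 3 of them, Anxa2, St14 and Hpn, were at least 2-fold higher in epithelial-like cells and 4, Plat, Serpine2 and Lrp1 among them, at least 2-fold lower, beside 12.2% and 7.87% of all genes. Their median log2 ratio was -0.23, and that of all genes over the minimum was 0.22. St14, which encodes matriptase, a membrane protease that activates pro-urokinase, was 2.96-fold higher (2.05 to 4.41). Hpn, the gene of the related protease hepsin, was 2.08-fold higher (1.39 to 3.25). Lrp1, an endocytic receptor that clears complexes of activators and inhibitors, was at 343 CPM in stromal-like and 27.7 CPM in epithelial-like cells. Mrc2, a collagen receptor that associates with uPAR, had 29 of its 34 UMIs in stromal-like cells of the medium tumor and all 4 of its UMIs there in the large tumor.

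Along the axis 12 genes of the list were over the minimum, and 2, Serpine2 among them, were at least 2-fold higher in the highest cells while St14 (0.315), Hpn (0.180) and the clearance receptor gene Igf2r (0.478) were at least 2-fold lower, beside 9.17% and 9.01% of all genes. Between clusters St14 and Hpn were lowest in the Vim-high clusters 5 and 7, with St14 at 7.43 and 8.95 CPM, and St14 was highest in the Krt17 cluster at 116 CPM. Between the tumors 14 genes of the list were over the minimum, and 3 (Plat, Plgrkt and Serpine2) were at least 2-fold higher and 3 (Anxa2, Eno1 and Hpn) at least 2-fold lower in the large tumor, beside 6.01% and 18.8% of all genes. Their median log2 ratio was 0.19, and that of all 8120 genes was -0.16. Eno1, a surface binding protein of plasminogen, was at 7.15 CPM in the large and 252 CPM in the medium tumor. This gap was also present outside the epithelial-like cells, at 15.3 against 327 CPM in macrophages, and Eno1 has near-identical copies in the mouse genome, so its counts are uncertain. Both tables list the same gene rows, but whether reads were mapped and counted alike in both was not tested, and this bears on every ratio between the tumors.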

How the data were processed

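Per the labels and the study's methods, the authors aligned the reads and made, for each tumor, 1 table that counts UMIs for every gene in every cell barcode, with Cell Ranger on build mm10 (both named in the submitters' processing notes; the version is not given in the sources used here). The deposited values are raw whole counts, and genes are named by symbol (39 symbols name more than 1 row, none a member). Mitochondrial protein genes had 0 UMIs. All 2812 and 1533 deposited barcodes were kept. Scrublet called 0 and 9 of them as doublets (0.587% of the large tumor), and none was removed.

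Each table was log-normalized to 10000 UMIs per cell and clustered with Seurat 5.3.0 in R 4.3.3 (2000 variable genes, 10 principal components, resolution 0.8). A cluster was named where at least 3 markers of a list were in 10% of its cells and reached 25% of the level they had in their top cluster, and no other list reached 60% of that share. Stromal and pericyte lists were not held against each other. These thresholds were set after marker values were seen. UMIs were summed per class, cluster or axis group, and ratios and exact 95% intervals (Poisson for levels, binomial for shares, conditional binomial for ratios) were computed with Python 3.11.15 and scipy 1.17.1, after the code had been tested on simulated data. Shares of the background cover genes with at least 200 UMIs. These were counted in all cells of the tumor for classes and in its epithelial-like cells for clusters and axis. Between the tumors they were counted in all cells of both tumors together. Diffusion pseudotime was computed with scanpy 1.11.5 and TMM factors with edgeR 4.0.16, which were used for alternatives only.

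The members, the gene lists and the comparisons were chosen with earlier results of these data known. Genes named are the members, the plasminogen list, markers, the 5 leading genes of a cluster (ranked by the ratio of cluster CPM to the CPM of the remaining cells, 10 added to each, among genes seen in at least 25% of its cells) and the 5 genes most like each member. Vim, which set the direction of the axis, and Epcam were added to describe it. Serpinb10 is named for its overlap with Serpinb2. Genes ranked in macrophages with Serpinb2 and genes of the peritoneal macrophage list were added after the values were seen. Some items are not reported here by name.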

Additional observations from a re-analysis of the deposited data

Results flagged for a closer look

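The Plat ratio of epithelial-like to other cells lay on opposite sides of 1 in the 2 tumors. Its level in epithelial-like cells over that in all other cells was 0.438 (0.387 to 0.496) in the medium tumor and 2.16 (1.51 to 3.19) in the large tumor, and both intervals lie away from 1 on opposite sides. The difference was not tested, since each tumor is 1 sample. The other cells were made up differently. Macrophages, which had 8 UMIs of Plat in the medium tumor and 0 in the large tumor, were 253 of the 314 other cells of the large tumor (80.6%) and 238 of the 481 of the medium tumor (49.5%). Mesothelial-like cells, with 116 Plat UMIs in the medium tumor, formed no cluster of their own in the large tumor, where 18 cells were called mesothelial when cells were named 1 by 1. The part of this in the difference was not tested. Against stromal-like cells alone, epithelial-like cells were lower in both tumors, at 65.2 against 500.1 CPM and at 246 against 426 CPM.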

How the results depend on the processing

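With 1 tumor of each size every value describes that tumor, and no replicate could be left out because the tables pool the technical replicates. No paired analysis was possible because the replicate numbers in the labels belong to technical replicates that are pooled in 1 table per tumor. Of 191 recomputed values for single members, 168 moved by less than their counting interval and 23 moved further, and no called value changed sign. The count of members at least 2-fold higher in epithelial-like cells of the medium tumor was 0 under every alternative tried, and that of members with a 4-fold range over epithelial-like clusters of the medium tumor, 3 with Plau included, was 3 or 4. Along the axis the count was 1 and became 2 at resolution 1.2, with thinned cells, with diffusion pseudotime and without the epithelial-like cluster with the fewest epithelial markers, each time by Plau, which has 26 UMIs there. Between the tumors it was 2 and became 1 with thinned cells and without that cluster in each tumor, an alternative added after the data were seen, and became 3, with Serpinb2 from few UMIs, at resolution 1.2 and without the large tumor clusters led by Papss2 and Tff3, also added after the data were seen. With the mean over cells of depth-scaled counts the count stayed at 2, but Serpine2 was at a log2 ratio of 0.91 and Plau, from few UMIs, at -1.48 took its place. The class comparison of the large tumor was not recomputed. Without those clusters the log2 range over epithelial-like clusters of the large tumor was 1.46 for Plat and 0.78 for Plaur, against 6.39 and 2.06 with them. At 4-fold in place of 2-fold, 2 genes of the plasminogen list, Serpine2 and Lrp1, were lower in epithelial-like cells of the medium tumor and 0 were higher. Of all genes 3.62% were lower and 2.36% higher. Along the axis 1, Serpine2, was higher and 1, Hpn, lower, beside 2.57% and 2.97% of all genes. Between the tumors 0 were higher and 2, Eno1 and Hpn, lower in the large tumor, beside 0.874% and 5.01%. Counting pairs of members whose interval for the share of epithelial-like cells with both lay above the product of their shares, 1 pair, Plaur and Plat, passed narrowly and 0 did with 20 principal components. Over all alternatives the log2 ratio of the tumors lay between 1.5 and 2.20 for Plat and between 0.58 and 1.53 for Serpine2. That of epithelial-like over other cells of the medium tumor lay between -6.75 and -4.74 for Serpinb2, against -6.51 in the main run. For Plau it lay between -1.51 and -0.44, against -1.34. Plaur kept no direction along the axis, with log2 values from -0.17 to 0.42. The cluster with the highest Plau and Serpine2 in the medium tumor shared at least 92.0% of its cells with cluster 6 under the 4 other clusterings, but at resolution 1.2 it held 51.3% of cluster 6. At that resolution 226 of the 230 cells of cluster 7 were in an unnamed cluster, and the highest Plaur was in another cluster. The large tumor cluster with the highest Plaur had 0% of its cells from cluster 7 of that tumor at resolution 0.4, at resolution 1.2 and with 20 principal components. The alternative without epithelial-like clusters that lack an epithelial marker among their leading genes gave no value, as no such cluster of the large tumor had one.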

Other observations

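The macrophages with Serpinb2 carried a set of other genes. Chosen after the values were seen, the genes with the largest ratio in the 23 macrophages with Serpinb2 over the 215 without, in the medium tumor, began with Prg4, Fgfr1, Slpi and Cd5l and also held Ltbp1 and Icam2 among the first 12. Prg4 had 137 UMIs in the 23 cells (1429 CPM) and 42 in the others (50.9 CPM), a ratio of 28.1 (19.7 to 40.7), and was seen in 18 of the 23 cells. Slpi, the gene of a secreted protease inhibitor, was at 11681 against 1140 CPM. In the large tumor Prg4 had 9 UMIs in 16 macrophages with Serpinb2 and 6 in the 237 without, a ratio of 19.2 (6.10 to 65.5). Those 9 UMIs came from 3 of the 16 cells. Granulocyte markers were at 9404 CPM in those 237 cells and at 351 CPM in the 16, and without the 6 cells called granulocytes the ratio was 19.6 (6.24 to 67.0). The first 12 genes ranked in the large tumor, led by Pmp22, Calml4 and Eprs, did not include any of the 12 of the medium tumor. Prg4 had a larger ratio than these genes there but was not ranked, as it was seen in under 25% of the 16 cells. Summed macrophage markers were at 18919 CPM in the medium tumor cells with Serpinb2 and at 32120 CPM in those without, and at 21573 and 21385 CPM in the large tumor. In mesothelial-like cells of the medium tumor Prg4 was at 181 CPM with Serpinb2 and at 135 CPM without. A list of 13 genes known from resident macrophages of the peritoneal cavity was drawn up after the values were seen and holds Prg4, Cd5l, Icam2 and Ltbp1 from the leading genes above, so its counts are a description and no evidence of such a cell type. Of its 9 genes with at least 10 UMIs in macrophages of the medium tumor 7 were higher beyond counting error in cells with Serpinb2, where 4.97% of 6621 genes were, and of the 3 such genes in the large tumor Prg4, Alox15 and F10 were, where 3.02% of 2421 genes were. Without Prg4, Cd5l, Icam2 and Ltbp1 it was 3 of 5 in the medium and 2 of 2 in the large tumor, still from a list drawn up afterwards. In the medium tumor Icam2 was at 12.4-fold (4.91 to 32.9) and Cd5l at 10.97-fold (7.11 to 17.0), whereas Gata6, a transcription factor gene of these macrophages, had 4 UMIs in the 23 cells and 8 in the others, a ratio of 4.301 (0.948 to 16.1). Macrophages with Serpinb2 of the large tumor had 0 UMIs of Gata6, Selp and Timd4, beside 1, 4 and 2 in those without.

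The unnamed cluster of the medium tumor held 28 of the 194 Serpinb2 UMIs in 10 of its 64 cells. Those 10 cells had 30 UMIs of Prg4 and the 54 others had 2. Their median was 7930 UMIs per cell against 4077.5 in the others, and their median doublet score was 0.15 against 0.17, where epithelial-like cells without Serpinb2 had 0.04.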
